A study of Mus musculus with 3 samples.

Results

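Prph2, Rom1, Prom1, Abca4 and Reep6 encode membrane proteins that build or serve the outer segment discs of photoreceptors. The genes were chosen by name, as every probe set of the array whose annotation gave exactly 1 of these symbols and no other. That gave 7 probe sets out of 12422, for 5 of 8251 named genes. A probe set is a group of short oligonucleotides against 1 transcript, read as a single signal. Prph2, Abca4 and Reep6 had 1 set each, and Rom1 and Prom1 had 2 each.

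The light-sensing outer segment of a rod or cone is a modified cilium filled with stacked membrane discs. New discs form at its base and old ones are shed at its tip, so the cell keeps making disc proteins for life. Prph2, or peripherin-2, is a tetraspanin that curves the disc rim, and Rom1 is its close relative and binding partner. Prom1, or prominin-1, is a glycoprotein of membrane protrusions found where new discs evaginate. Abca4 is a transporter of the disc rim that clears retinal bound to phosphatidylethanolamine, and loss of it in people causes Stargardt macular degeneration. Reep6 is a protein of the endoplasmic reticulum in rods rather than of the discs themselves, and loss of it causes rod degeneration.

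The arrays were hybridised with total RNA of the neural retina from wild-type mice at postnatal day 10, on a mixed 129/SvEv and C57BL/6 background (Affymetrix U74Av2 design). The mice were siblings without the Rp1 deletion that was studied alongside, and the Rp1-/- samples were not analysed here. Each of the 3 samples pooled the retinas of 3 to 4 mice, taken between 1 and 2 pm. They are called pools 1 to 3 in accession order. All 3 descriptions say wild type, although "rp1" stands in the titles of pools 2 and 3. With 1 group there is no condition to compare, and no test was made. The values below show how strongly each gene was read and how closely the pools repeated it. No source used here says whether the pools came from separate litters or were labelled together.

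Signals are the deposited intensities, which are linear. The trimmed means of the arrays were equal to within rounding, from 500.2 to 500.3. A signal was taken as above background when it exceeded the 90th percentile of 98 probe sets for genes typical of other organs, which was 393.2, 437.2 and 338.7 on arrays 1, 2 and 3. Rod genes were well represented, with 10 of 11 measured genes of rod phototransduction above background on all arrays, where 31.1% of all probe sets were. Of 9 measured pigment epithelium genes none was above background on all 3, and 7 were on none. Lens genes were present in every pool and unequal, at 2.65%, 0.449% and 4.69% of the summed signal in pools 1 to 3. The ratio of 3′ to 5′ signal, a measure of RNA integrity, was 1.20, 1.44 and 1.69 for Actb and 0.95, 0.88 and 0.93 for Gapdh.

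All 5 genes were read well above background. Every one of the 7 probe sets was above background on all 3 arrays, where 31.1% of all probe sets were. The dimmest reading was 2.63 times the limit, for the second Rom1 set in pool 1, and the brightest was 35.0 times the limit, for Prom1 in pool 3. Probe sets bind with different strength, so 1 gene's signal was not set against another's.

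**Figure D1:**
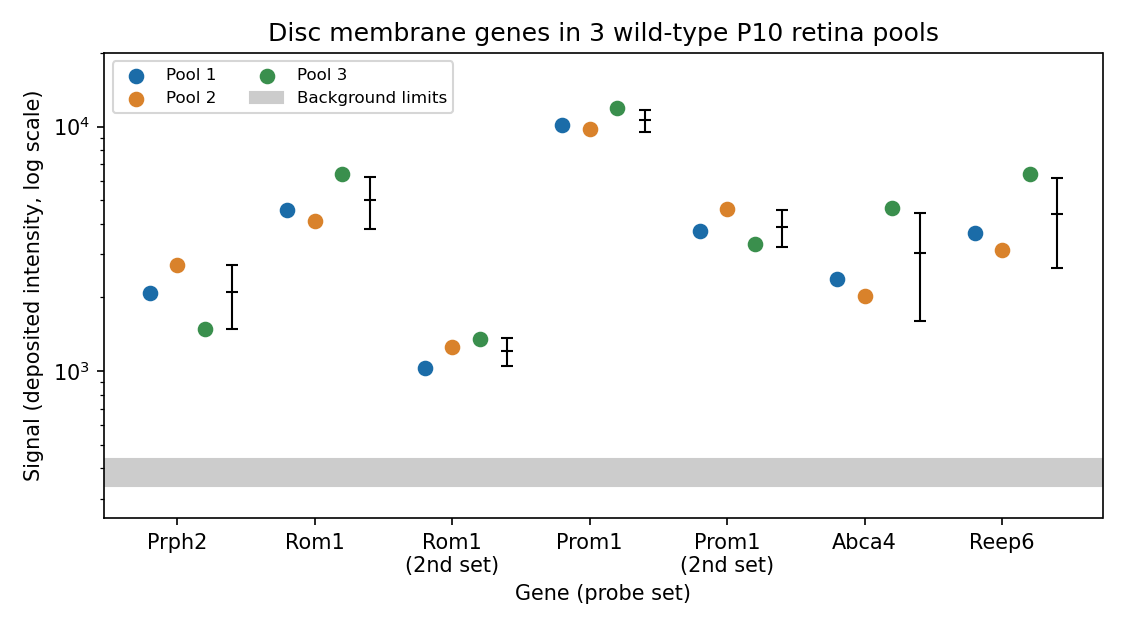
Signal of each of the 7 probe sets (deposited intensity, log axis) in pools 1, 2 and 3, shown as coloured points, with the mean and SD of the 3 pools in black. The grey band spans the background limits of the 3 arrays, 338.7 to 437.2, and every point lies above it.

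Prph2, the disc rim tetraspanin, read 2094, 2718 and 1483 in pools 1, 2 and 3. It was highest in pool 2 and lowest in pool 3, a 1.83-fold range around a mean of 2098 ± 618 (SD, n = 3). On the log2 scale its range was 0.87, and 11.3% of the 3861 probe sets above background on all arrays had a larger one.

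Rom1, the partner of Prph2, read 4559, 4123 and 6371 in pools 1, 2 and 3. Its order was the reverse of that of Prph2, with pool 3 highest and pool 2 lowest, over a 1.55-fold range around 5018 ± 1192 (SD, n = 3). The second Rom1 set has an identifier ending in _f_at, used where probes may match related transcripts, and read 1034, 1251 and 1348. It too was highest in pool 3, but its lowest pool was pool 1, and its range was 1.30-fold.

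The partners therefore did not keep a fixed ratio of signals across the pools. The log2 signal of Prph2 minus that of Rom1 was -1.12 in pool 1, -0.60 in pool 2 and -2.10 in pool 3. This difference moved by 1.50 between pools 2 and 3, or 2.83-fold, where the offset itself depends on the probes and says nothing of protein ratios. With the second Rom1 set the same difference was 1.02, 1.12 and 0.14 and moved by 0.98, or 1.98-fold. In both cases Prph2 was lowest relative to Rom1 in pool 3. The difference between the 2 sets of a single gene also moved across the pools, by 0.52 for Rom1 and 0.75 for Prom1.

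With no link to the pool orders tested, the sequences before the 2 start sites of these partner genes are shown as a description. Both are the 250 bases upstream of the start in RefSeq (GRCm38.p6), 5′ to 3′ on the gene's strand, at chr17:46910228-46910477 on the plus strand for Prph2 and chr19:8929357-8929606 on the minus strand for Rom1. Capitals mark TAATC, the core of the site bound by Crx, the homeobox factor of photoreceptors, searched on both strands, where the other strand reads GATTA.
Prph2: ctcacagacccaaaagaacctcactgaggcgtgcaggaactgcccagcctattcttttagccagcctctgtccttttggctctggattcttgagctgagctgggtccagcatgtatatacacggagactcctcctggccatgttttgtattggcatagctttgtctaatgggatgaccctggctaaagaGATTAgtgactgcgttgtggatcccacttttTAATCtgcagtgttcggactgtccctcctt
Rom1: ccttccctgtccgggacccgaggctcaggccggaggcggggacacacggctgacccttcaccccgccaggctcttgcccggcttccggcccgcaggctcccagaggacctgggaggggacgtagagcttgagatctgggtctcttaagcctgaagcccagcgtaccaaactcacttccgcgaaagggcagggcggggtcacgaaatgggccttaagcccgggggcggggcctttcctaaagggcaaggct

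The Prph2 window held 2 matches, which begin 61 and 30 bases before the start, at chr17:46910417-46910421 and chr17:46910448-46910452. The Rom1 window held none. Of 32851 upstream windows of this length in the table, 19.8% held at least 1 match and 3.28% held 2 or more. A match is a description of letters and not of a bound site, and a window without one shows only that these letters are missing from it.

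Abca4 gave the widest range. Pools 1, 2 and 3 read 2387, 2037 and 4657, with a mean of 3027 ± 1422 (SD, n = 3). Pool 3 stood apart from the other two, 1.95-fold above pool 1 and 2.29-fold above pool 2, whereas pools 1 and 2 lay close together. Its log2 range of 1.19 was exceeded by 3.26% of the probe sets above background.

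Reep6 followed the same course, with 3660, 3119 and 6408 in pools 1, 2 and 3. Pool 3 was 1.75-fold above pool 1 and 2.05-fold above pool 2, around a mean of 4396 ± 1764 (SD, n = 3). Its log2 range of 1.04 was exceeded by 5.70% of the probe sets above background. The log2 signal of Abca4 minus that of Reep6 was -0.62, -0.61 and -0.46 in the 3 pools, so the difference moved by 0.16, or 1.11-fold, while each gene moved more than 2-fold.

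The Abca4 window, the 250 bases at chr3:122044210-122044459 on the plus strand, also held 2 TAATC matches, and Reep6 had no window in the table. That Abca4 window overlaps the annotated span of Abca4 itself, and the Prom1 windows that of Prom1. The windows of Prph2 and Rom1 overlap no annotated gene. The first Abca4 match extends to TAATCC, read on the other strand as GGATTA, at chr3:122044402-122044407. The second lies at chr3:122044432-122044436 and begins 28 bases before the start. Both are printed with their flanks to set beside the Prph2 pair, and a link between matches and pool orders was not tested.
Abca4, first match: gtaattagagggGGATTAtgcttgaagggg
Abca4, second match: aaacgcggccttTAATCaccagaaggaca

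The 6-letter form TAATCC was held by 6.25% of windows and by no window of Prph2, Rom1 or Prom1. Of the 2 Prom1 windows, 1 held a single TAATC and the other none. TGCTGA, part of the site of the rod factor Nrl, was found in no window of the 4 genes with a window and in 16.1% of all windows.

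Prom1 was the steadiest of the 5. Its brighter probe set read 10151, 9813 and 11859 in pools 1, 2 and 3, a mean of 10608 ± 1097 (SD, n = 3) and a 1.21-fold range. A larger range was found for 77.2% of the probe sets above background. The second Prom1 set, designed from the same database sequence, read 3758, 4604 and 3298, with a mean of 3886 ± 662 (SD, n = 3) and a 1.40-fold range. It was highest in pool 2 and lowest in pool 3, which is the exact reverse of the first set and the order seen for Prph2.

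Such disagreement within a gene was not rare on these arrays. Among 383 pairs of probe sets for 1 gene, both above background on all arrays, 11.2% had exactly reversed orders and 29.2% had the same order. By the distance between the 2 sets' deviations, defined below, the Prom1 pair lay 0.53 apart and the Rom1 pair 0.39, against a median of 0.42 over all such pairs.

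To set the genes side by side, the deviation of a pool was taken as the log2 signal there less the average of the gene's log2 signals in all 3. For the brighter set of each gene, 4 of 5 genes (Rom1, Prom1, Abca4 and Reep6) were lowest in pool 2 and highest in pool 3, an order that 17.0% of all probe sets above background had. The other gene, Prph2, had the reverse order, as did 21.1% of all probe sets. Counting all 7 probe sets, 4 had the first order, 2 the reverse, and the second Rom1 set neither. The deviation in pool 3 was 0.72 for Abca4, 0.62 for Reep6, 0.37 for Rom1, 0.17 for Prom1 and -0.46 for Prph2. In pool 2 the order of the genes was turned round, from 0.42 for Prph2 to -0.47 for Abca4.

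**Figure D2:**
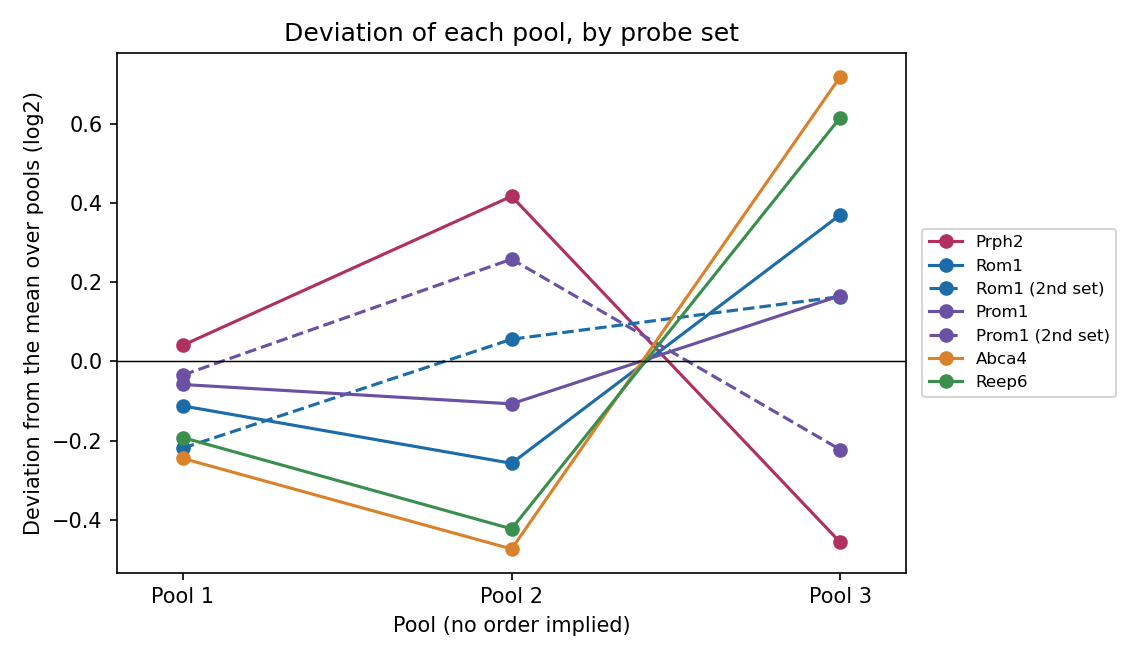
Deviation of each pool from the gene's mean over the 3 pools (log2), by probe set, where dashed lines are second probe sets and lines only link the points of 1 set. In pool 3 Abca4 (0.72) and Reep6 (0.62) lie at the top and Prph2 (-0.46) at the bottom.

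The size of these differences rests in large part on pool 3. Without it the log2 range was 0.23 for Abca4, 0.23 for Reep6, 0.15 for Rom1, 0.049 for Prom1 and 0.38 for Prph2. A range over 1 log2 unit, or 2-fold, was reached by 2 of 5 genes, Abca4 and Reep6, and by 6.79% of the probe sets above background. The count was 0 without pool 2 or without pool 3, and 1 after quantile normalization, which brought Reep6 to 0.89. The shares of the probe sets above background were then 2.61% without pool 2, 2.26% without pool 3 and 6.72% after quantile normalization. With 2 pools a range can only be equal or smaller. With a pool left out, 4 genes followed the order among the remaining pools each time. That count was fixed in advance, because 4 genes had the full order and Prph2 had its exact reverse. Prom1 lost the order of the other 3 genes after quantile normalization, since its pools 1 and 2 then stood at -0.041 and -0.021. When the probe sets of a gene were averaged, Prom1 and Rom1 lost it and 2 genes kept it.

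**Figure D3:**
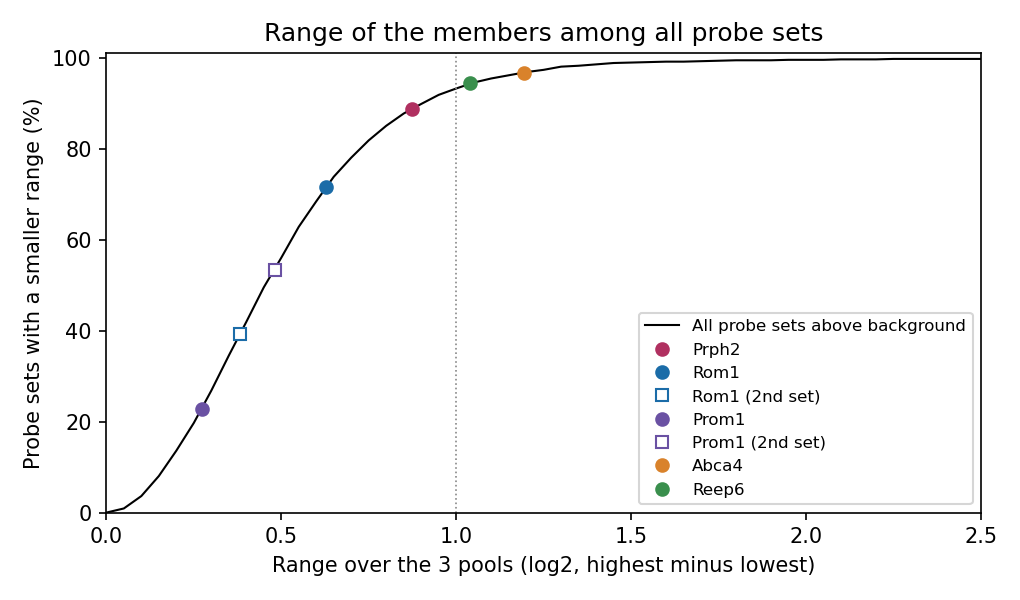
Share of the 3861 probe sets above background on all arrays with a log2 range below the value on the x axis (black line), with the 7 probe sets marked and second sets as open squares. The dotted line is 1 log2 unit, and only Abca4 (1.19) and Reep6 (1.04) lie beyond it.

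Over the brighter sets of the 5 genes the median log2 range was 0.87, against 0.45 over all probe sets above background. Their median deviations were -0.11, -0.26 and 0.37 in pools 1, 2 and 3, where those of all probe sets above background were 0.02, 0.01 and -0.03. The second sets of Rom1 and Prom1 had log2 ranges of 0.38 and 0.48. Median deviations of these 2 second sets were -0.13, 0.16 and -0.03. In pool 3 the sets went opposite ways, at 0.16 for Rom1 and -0.22 for Prom1. In whole retina, a larger share of photoreceptors and more transcript per photoreceptor cannot be told apart.

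Other genes of the disc and outer segment were compared by a written list. Of 26 genes, 9 had a named probe set, and 7 were above background on all arrays, where 31.1% of all probe sets were. Of these 7, 4 were highest in pool 3 and 3 in pool 2, and 5 were lowest in pool 1, where 30.7%, 35.3% and 27.9% of all probe sets above background were. The median deviations of the 7 were -0.20, 0.17 and 0.21 in pools 1, 2 and 3. Of all 9, 4 were highest in pool 3, and without pool 2, 7 were, as were 45.2% of the probe sets above background in the 2 pools left.

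Single genes of that list differed in their course. Unc119, a chaperone for lipid-modified proteins such as transducin, read 13634, 9638 and 14316, and was the only one of the 7 with pool 2 lowest and pool 3 highest, an order it lost after quantile normalization, and which Tulp1 took with equal array medians. Tulp1, which carries proteins towards the outer segment, read 9866, 10275 and 14222. Cnga1, a subunit of the rod cyclic nucleotide-gated channel, read 665.4, 1189 and 1440.0, the only range of the 7 above 1 log2 unit (1.11).

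Arl3, a GTPase that releases lipid-modified cargo in the cilium, read 1339, 1764 and 1976. Rab28, a small GTPase of the outer segment, was lowest in pool 3 as Prph2 was, with 1189, 1700 and 1120 to the nearest unit. Mak, a kinase of the photoreceptor cilium, read 673.4, 925.2 and 690.6. Tmem30a, the partner subunit of lipid flippases, read 1013, 1324 and 1215, and a second set above background read 1101, 1277 and 1141.

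Rod phototransduction genes, like 4 of the 5 disc membrane genes, were mostly highest in pool 3. Of 11 measured, 9 were highest there, or 8 after quantile normalization, against 30.7% of all probe sets above background. At the other end, 8 were lowest in pool 1, against 27.9% of all probe sets above background, and 2 in pool 2, but with array medians made equal 5 were lowest in pool 1 and 4 had the order of Abca4. With the deposited values, the 2 lowest in pool 2 were Pde6g and Rcvrn. Pde6g, the inhibitory subunit of rod phosphodiesterase, read 13731, 12851 and 23848, and Rcvrn, recoverin, read 3146, 2429 and 8726. Highest in pool 2 were Pdc, at 21088, 23619 and 21313, and Rgs9, above background on no array, at 118.7, 175.7 and 66.5. Pde6b read 9198, 9944 and 11793, a 1.28-fold range, and a second set read 1211, 1157 and 1677. Pde6g, Rcvrn, Pdc, Rgs9 and Pde6b were named after their values were seen. Gnat1, the G protein alpha subunit of rods, read 1015, 1101 and 10970.1. For Gnb1, the beta subunit of the same protein and not restricted to rods, the signals were 7630, 14796 and 28821, and further sets, at 2986, 4717 and 5996 and at 5267, 11477 and 19797, were ordered alike. The median deviations of the 10 above background were -0.32, -0.17 and 0.52, against -0.11, -0.26 and 0.37 for the disc membrane genes. The difference between these lists was not tested.

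Regulators of photoreceptor genes lay lower in pool 3 on balance. Of 10 measured, 6 were above background on all arrays, where 31.1% of all probe sets were. The median deviation of these 6 in pool 3 was -0.16, and between -0.19 and -0.16 under the other scalings. Crx read 8223, 7620 and 6475, and Nrl read 518.5, 672.0 and 493.6. Both were lowest in pool 3, as Prph2 and the second Prom1 set were. Abca4, Reep6, Rom1 and the brighter Prom1 set were highest there. Neurod1, a basic helix-loop-helix factor of photoreceptors, read 3245, 5806 and 3685, and Prdm1, which favours photoreceptor over bipolar fate, 903.7, 760.4 and 470.7. Mef2d, a factor that acts with Crx, was close between pools at 6791 ± 385 (SD, n = 3), and Rax, an eye field homeobox factor, stood at 1793 ± 187 (SD, n = 3).

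The lens list shared the order of the 4 genes in full. All 12 measured lens genes, and all 8 above background on every array, were lowest in pool 2 and highest in pool 3, with Cryaa, a crystallin, at 30501, 4703 and 76094. Their median deviations were 0.59, -2.07 and 1.41, so pool 1 lay on the side of pool 3. For Abca4, Reep6, Rom1 and Prom1 pool 1 lay on the side of pool 2, with deviations from -0.25 to -0.059. Müller glia genes lay close to the disc membrane genes, with median deviations of -0.04, -0.28 and 0.34 in pools 1, 2 and 3. Of 6 above background, 5 were highest in pool 3, against 30.7% of all probe sets above background. Of these 5, 3 were also lowest in pool 2, an order that 17.0% of all probe sets above background had. Rlbp1, a retinaldehyde-binding protein of Müller glia, read 2618, 3316 and 4196. Glul, glutamine synthetase, read 1040.2, 1492.1 and 785.0 on its brighter set, lowest in pool 3, and 371.1, 449.5 and 1002.8 on the other, highest there. The part of lens or glial RNA in the values of the 5 genes was not tested, nor was that of RNA integrity, for which the Actb ratio ran from its low in pool 1 to its high in pool 3.

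**Figure D4:**
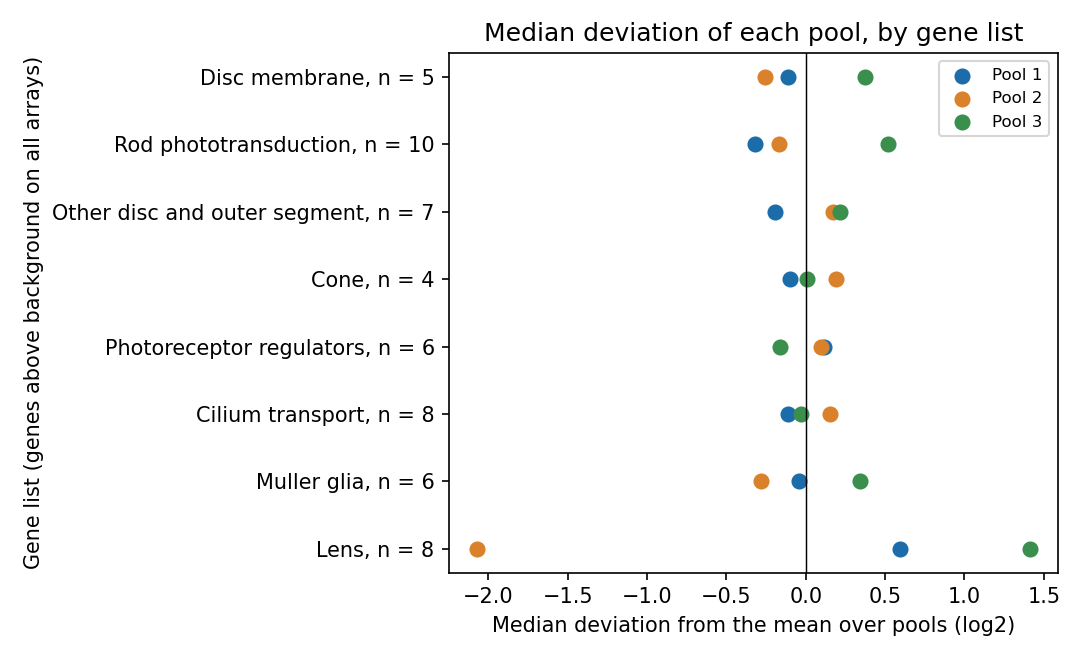
Median deviation of each pool (log2) over the genes of a list that were above background on all arrays, with the number of genes beside each list. The disc membrane and rod lists lie highest in pool 3 (0.37 and 0.52), and the lens list spans -2.07 to 1.41.

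A high pool 3 was not limited to photoreceptor and Müller lists. For 9 amacrine and ganglion cell genes above background the median deviations were -0.22, -0.07 and 0.19. Of these 9, 6 were highest in pool 3, against 30.7% of all probe sets above background. The count was 1 of 4 for cone genes, 2 of 8 for genes of transport in the cilium, 1 of 2 for bipolar and horizontal cell genes and 1 of 4 for microglial, vessel and blood genes. Counted by the full order, with pool 2 lowest too, of 4 cone genes above background, 1 (0 after quantile normalization) had the order of the 4 disc membrane genes, and the median deviation in pool 3 was 0.01. Opn1sw, the short-wavelength opsin, read 1475, 1657 and 1539. Of 8 genes of transport in the cilium 1 had it, and Ift88, a subunit of the transport particle, read 2114, 2355 and 2967 on its brighter set and 783.4, 1097.0 and 396.3 on the other, which was lowest rather than highest in pool 3. The count was 2 of 9, or 3 with equal array medians, for amacrine and ganglion cell genes, 0 of 2 for bipolar and horizontal cell genes, and 0 of 4 for microglial, vessel and blood genes. Of all probe sets above background, 17.0% had this order, and differences between these lists were not tested.

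Genes of the retinoid cycle, which handle the retinal that Abca4 clears, were measured in part. Of 8 with a named probe set, 3 exceeded the limit throughout, where 31.1% of all probe sets did. Of these 3, 0 had the order of Abca4. That order was held by 17.0% of all probe sets above background. Highest in pool 3, as Abca4 was, were 2 of the 3, Rlbp1 and Dhrs3, against 30.7% of all probe sets above background. Rdh11 was highest in pool 2. Rdh11, a retinol dehydrogenase, read 1286, 1887 and 1344, and a second set read 672.1, 975.3 and 891.5. Dhrs3, a retinal reductase, read 596.9, 745.8 and 963.3. Rgr, Rdh5 and Stra6 of the pigment epithelium were above background on no array.

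Relatives of the 5 genes by sequence family were also read. Of 16 measured tetraspanins other than Prph2 and Rom1, 5 exceeded the limit on every array, where 31.1% of all probe sets did. Another 7 stayed below it throughout. Cd81 read 1582, 1844 and 2360. Cd9 read 634.2, 1464 and 988.2, a 2.31-fold range, Cd63 1128, 1184 and 807.8 and Tspan13 659.6, 782.1 and 678.9. Cd151 read 613.3, 530.0 and 741.6 on its brightest set, but a second set read 678.3, 658.6 and 381.4 and another 534.1, 620.2 and 477.3.

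Abca1, a cholesterol exporter related to Abca4, read 599.6, 912.9 and 411.7 on its brighter set and 662.5, 381.5 and 411.3 on the other. Abca2 read 1053, 531.4 and 765.9. Neither had pool 3 highest. Reep5, a membrane-shaping relative of Reep6, read 973.2, 1192 and 1832, and its second set 1046, 1254 and 1359. Reep1 read 1484, 1525 and 1824. Both were highest in pool 3 under each scaling, as Reep6 was. Both were lowest in pool 1, as Reep6 was not, although with equal array medians Reep1 was lowest in pool 2.

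Likeness of pattern was measured as the Euclidean distance between the 3 deviations of 2 genes, over 3130 other genes above background on all arrays. Abca4 and Reep6 lay 0.13 apart, the closest pair of genes among the 5, and Prph2 and Abca4 lay 1.50 apart, the farthest, by the brighter sets. The genes nearest to Abca4 were Sqstm1 (distance 0.05) and Gadd45a (0.07), and 3 genes lay within 0.1. Nearest to Reep6 were Notch2 (0.02) and Tkt (0.03), with 9 within 0.1. Prph2 had Pnrc2 (0.02) and Sart3 (0.03) nearest and 26 within 0.1, and Rom1 had Prkcb (0.02) and Shisa5 (0.02) nearest and 49 within 0.1. For Prom1, whose pools differed least, Sidt2 and Cry1 came nearest (0.01 each), among 131 genes within 0.1. None of the 5 lay within 0.1 of another. With 3 pools these distances describe the arrays and do not single out genes that vary together.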

How the data were processed

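The authors deposited a table of 12488 probe sets with a linear intensity per array, never negative. No source used here gives the software or scaling behind these values. Values were used as deposited, since the means after trimming 2% at each end lay within 5% of each other, and 66 control sets served only for RNA integrity. Symbols were those of an old platform annotation from GEO and were updated through a RefSeq gene table for 10839 of 10855 sets with a single symbol; 396 had several. A gene was represented by its set with the highest mean, and for list genes named, other sets above background on at least 1 array are given beside it. Values below 1 were set to 1 before log2. Spread is the SD and range over the 3 pools. No test between groups was possible with 1 group. The number of arrays limits the precision, and no detection call accompanies the intensity values.

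Genes, gene lists and alternatives (scaling, floor, background limit, averaged probe sets, each pool left out) were chosen with earlier results of these data known. Named genes are the 5 members, members above background of the disc, retinoid, family and regulator lists, the first 2 measured genes of other lists (not all are named), and the 2 nearest genes by pattern. Pde6g, Rcvrn, Pdc, Rgs9, Pde6b, Rgr, Rdh5 and Stra6 fall outside this rule and were named after their values were seen. Probe set pairs were compared after the values were seen. Calculations used Python 3.11.15 and pandas 2.3.3, and were tested on simulated data.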

Additional observations from a re-analysis of the deposited data

How the results depend on the processing

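No paired analysis was possible because there is 1 group. All 5 genes stayed above background under the 95th percentile limit. They also did so under the other alternatives, which could hardly give another outcome. The 80th percentile and the array medians (234.2, 254.1 and 243.3) lie below the limits already passed. Either other scaling moved the limits along with the signals, and a floor of 50 was not used in this call. A gene above background on all arrays stays so when a pool is left out. Every mean signal moved by less than the SD of the pools under either other scaling. The floor of 50 could change no value of the 5 genes, since every reading of their probe sets lay above it. Leaving out 1 pool in turn gave log2 ranges of 0.38 to 0.87 for Prph2, 0.15 to 0.63 for Rom1, 0.049 to 0.27 for Prom1, 0.23 to 1.19 for Abca4 and 0.23 to 1.04 for Reep6, and 0 to 2 genes with a range over 1 log2 unit, partly because fewer pools give a smaller range. Of all probe sets above background in the pools left, 2.26% to 4.01% had such a range. Quantile normalization gave a Prom1 range of 0.10 and 1 gene over 1 log2 unit, where 6.72% of the probe sets above background were. Averaged probe sets gave a Prom1 range of 0.12 and 2 genes lowest in pool 2 and highest in pool 3; its deviations reversed, to 0.075 in pool 2 and -0.029 in pool 3, because its second set runs the other way. The deviation of pool 1 lay between -0.19 (without pool 3) and 0.25 (without pool 2) for Prph2, and between -0.24 (without pool 2) and 0.073 (without pool 3) for Rom1, -0.11 and 0.024 for Prom1, -0.48 and 0.11 for Abca4 and -0.40 and 0.12 for Reep6. Without pool 3 the value had the opposite sign to that over 3 pools. That sign was fixed in advance by the pool order, in which pool 1 was the middle pool of each gene. Other disc and outer segment genes highest in pool 3 numbered 4 to 7 when pool 1 or 2 was left out, and have no value without pool 3. Equal medians left the orders of all 5 genes as they were.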
